A study of Mus musculus with 6 samples.

Results

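The genes described here are 37 genes of the peroxisome: 13 peroxins, which build the organelle and import its proteins, and 24 enzymes and transporters, most of them for lipid oxidation. They were taken by gene name from a list written for this work, and all 37 were found among the 54532 genes of the deposited count table. Whole-liver RNA was sequenced in 6 libraries from male mice, 3 labelled wild type (WT replicates 1, 2 and 3) and 3 labelled Trem2 KO (KO replicates 4, 5 and 6). The KO mice are Trem2-/-, lacking a lipid-sensing receptor of macrophages and microglia, and the WT mice are their littermates. Every group was on a high-fat diet for 8 weeks from 8 weeks of age, so no group on ordinary food was analysed here. Whether the deletion was confined to a cell type and which exons were removed are not given in the sources used here.

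Peroxisomes shorten very long-chain, branched-chain and dicarboxylic fatty acids and bile acid precursors, and they make the first steps of ether lipids. Their matrix enzymes are made in the cytosol and carried in by the receptors Pex5 and Pex7 through a docking complex of Pex13 and Pex14. The receptors are then tagged by a ubiquitin ligase that holds Pex2 and Pex10, and pulled out again by an ATPase that holds Pex6 and is anchored by Pex26. In mouse liver, many peroxisomal oxidation genes and the division factor Pex11a are well-known targets of PPARA, the fatty acid-sensing nuclear receptor.

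The libraries held between 11591021 and 20399361 counts. Trem2 itself had 7, 26 and 26 counts in WT replicates 1, 2 and 3 and 9, 6 and 5 in KO replicates 4, 5 and 6, so the library labelled WT replicate 1 lay within the KO-labelled range (log2 fold change −1.30, SE 0.68, adjusted p = 0.633 in edgeR). Each direction given here is therefore between libraries as labelled. The hepatocyte marker Alb was abundant in all 6 libraries, between 47854 and 68041 CPM (counts per library, scaled to a common size). Mitochondrially encoded genes took 8.16% to 12.7% of the counts in WT-labelled libraries and 9.08% to 28.0% in KO-labelled ones, with KO replicate 4 highest. The fat cell genes Adipoq, Lep, Plin1 and Retn had 125, 64, 122 and 32 counts in KO replicate 5 and between 0 and 5 counts in each other library; KO replicate 5 stood apart in this. In whole liver, fewer cells of a type and less RNA per cell cannot be told apart.

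Levels of different genes were compared per length, as the authors' FPKM (counts scaled to gene length and to a size for each library). The library size implied by the FPKM was 0.846 to 1.14 times the library's total counts. Enzymes and transporters ranged from a mean of 0.880 FPKM for Agps to 1129 for Scp2 over the 6 libraries, with a median of 49.7. Peroxins ranged from 2.60 for Pex10 to 66.9 for Pex16, with a median of 12.0. Scp2, the sterol carrier and thiolase of branched-chain oxidation, had 1412, 1048 and 1028 FPKM in the WT-labelled and 1032, 1081 and 1171 in the KO-labelled libraries. Next in mean level came Acaa1b (1065 FPKM), a thiolase that closes the oxidation cycle, Phyh (869), which opens the breakdown of phytanic acid, and Cat (844), the catalase that removes hydrogen peroxide. At the low end stood Agps, an enzyme of ether lipid synthesis (0.880 FPKM), Abcd2, a transporter of very long-chain acyl-CoA (1.57), and Acox3, a branched-chain oxidase (1.79). The lowest count behind any member in any library was 69, for Abcd2.

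**Figure D1:**
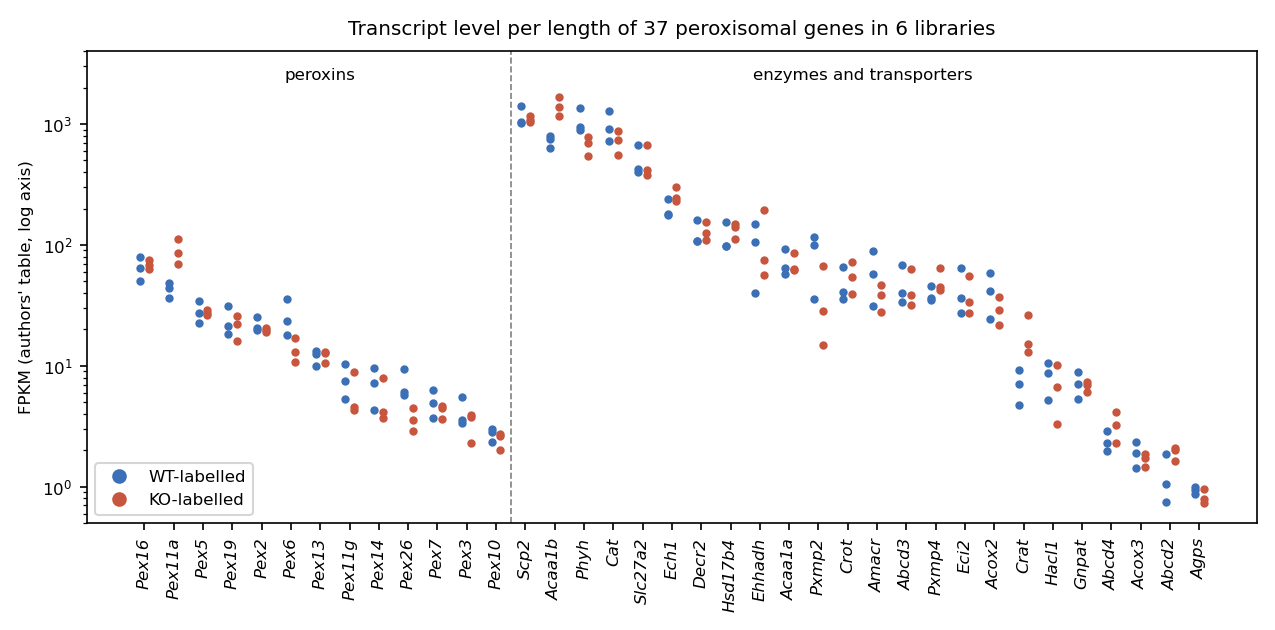
FPKM of the 37 genes in each library on a log axis, peroxins on the left and enzymes and transporters on the right, each ordered by mean level, with WT-labelled libraries in blue and KO-labelled libraries in red. The 5 most abundant enzymes and transporters (Scp2, Acaa1b, Phyh, Cat and Slc27a2) lie far above Pex16, the most abundant peroxin.

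In the comparison of KO-labelled with WT-labelled libraries, 0 of the 37 genes were called by edgeR's quasi-likelihood test at the adjusted 0.05 level, and 2 of all 13693 tested genes (0.0146%) were. At an unadjusted p under 0.05, 3 members were higher (Pex11a, Acaa1b and Crat, 8.11% of 37, against 5.37% of all genes) and 2 were lower (Pex26 and Pex6, 5.41% against 3.21%). In 4 members all KO-labelled libraries lay above all WT-labelled ones (Pex11a, Acaa1b, Crat and Ech1, 10.8% against 8.12% of all genes), and in 3 all lay below (Pex26, Pex6 and Phyh, 8.11% against 5.73%). These shares are near those of all genes and are not a result about peroxisomal genes as a group. Among other tools, DESeq2 passed 3 members, Pex11a, Acaa1b and Crat (1.08% of its genes passed), and limma-voom passed 0 (0.0073%). Limma-voom with sample quality weights passed 12 of the 37, beside 29.7% of all genes.

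**Figure D2:**
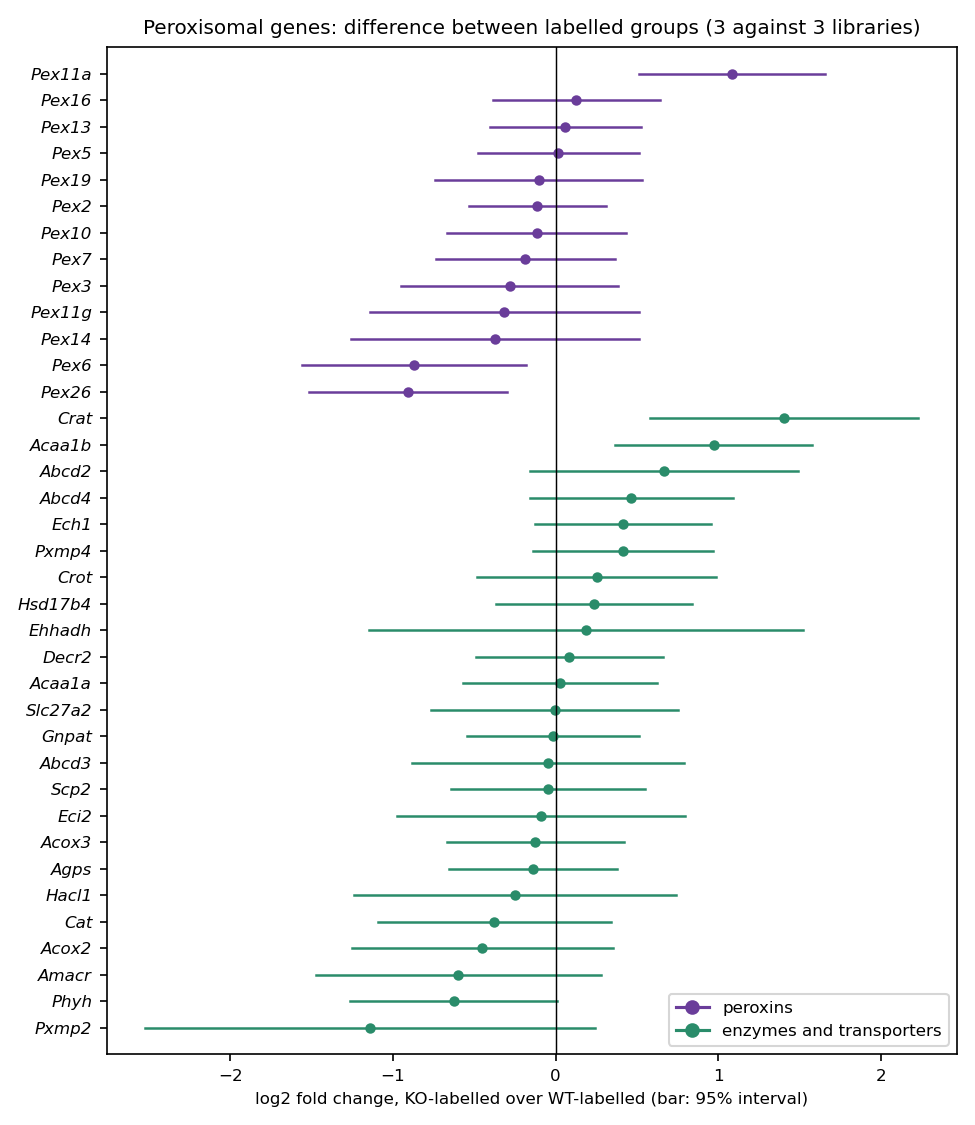
Log2 fold change of KO-labelled over WT-labelled libraries (x axis) for each gene (y axis), with its 95% interval from edgeR. The interval of Pex11a, Crat and Acaa1b lies above 0, that of Pex6 and Pex26 lies below 0, and the other 32 include 0.

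Among the peroxins, the division factors differed most from each other. Pex11a (ENSMUSG00000030545, mm10 chromosome 7, 79735957 to 79743131), which elongates peroxisomes before they divide, had 149, 141 and 117 CPM in WT replicates 1, 2 and 3 and 275, 229 and 359.8 CPM in KO replicates 4, 5 and 6 (the order kept for all genes). All KO-labelled libraries lay above all WT-labelled ones, at means of 288 ± 66.5 against 135 ± 16.6 CPM (SD, n = 3 each). Its log2 fold change was 1.09 (SE 0.25, 95% interval 0.52 to 1.66), and its p in edgeR was 0.0024 unadjusted, or 0.37 adjusted. DESeq2 gave an adjusted p of 0.0286, and over 21 alternative analyses the log2 fold change stayed between 0.89 and 1.43. Pex11g, its paralog, had 33.7, 18.2 and 25.4 CPM in the WT-labelled and 14.99, 31.4 and 15.6 CPM in the KO-labelled libraries, and the groups overlapped (log2 fold change −0.32, SE 0.36, adjusted p = 0.771). The ratio of Pex11a to Pex11g in FPKM was 4.71, 8.25 and 4.91 in the WT-labelled and 19.6, 7.79 and 24.7 in the KO-labelled libraries. KO replicate 5 thus lay below WT replicate 2 on this ratio (two-sided exact permutation p = 0.2, 0.233 adjusted over 7 ratios chosen after values were seen). Annotated exons of Pex11g share 41.1% of their bases with a gene on the other strand, and whether strand was counted is not given.

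The receptor export pair had lower values in every KO-labelled library, without passing the adjusted threshold. Pex6 (ENSMUSG00000002763, chromosome 17, 46711463 to 46725541), an ATPase subunit, had 130.4, 69.4 and 89.3 CPM in the WT-labelled and 41.4, 66.9 and 49.6 CPM in the KO-labelled libraries. The lowest WT-labelled value was only just above the highest KO-labelled one (log2 fold change −0.87, SE 0.30, adjusted p = 0.496, unadjusted p = 0.0194). Pex26 (ENSMUSG00000067825, chromosome 6, 121183667 to 121198837), its membrane anchor, had 51.2, 35.0 and 32.9 CPM against 16.7, 26.4 and 20.3 CPM, again without overlap (log2 fold change −0.91, SE 0.26, adjusted p = 0.41, unadjusted p = 0.00906). In both genes WT replicate 1 was the highest and KO replicate 4 the lowest library. Without WT replicate 1 the log2 fold changes were −0.59 for Pex6 and −0.68 for Pex26, and over all 21 alternatives they ranged from −1.09 to −0.44 and from −1.10 to −0.54. Relative to Pex5, the receptor they recycle, Pex6 stood at 1.04, 0.809 and 0.858 in the WT-labelled and 0.410, 0.593 and 0.472 in the KO-labelled libraries (ratio of FPKM). The ratio of Pex26 to Pex5 was 0.273, 0.273 and 0.212 against 0.111, 0.157 and 0.129. Neither ratio overlapped between the groups, and each had a two-sided exact permutation p of 0.1, the smallest that 3 against 3 allows (0.233 adjusted over the 7 ratios).

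Pex6 lies 1.62 Mb from Trem2 on chromosome 17, and Decr2, the other member on that chromosome, lies 22.3 Mb away. Of 46 genes tested within 2 Mb of Trem2, 3 were higher (6.52%) and 4 lower (8.7%) at an unadjusted p under 0.05, against 5.37% and 3.21% of all genes, and 0 passed the adjusted threshold. Whether the chromosome around the targeted allele differs between the labelled groups was not tested.

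The import receptors and their docking partners differed less than their spread. Pex5, the receptor for most matrix enzymes, had 130.5, 89.1 and 108 CPM in the WT-labelled and 105, 117 and 109 CPM in the KO-labelled libraries (log2 fold change 0.02, SE 0.21, adjusted p = 0.982). Pex7, which carries the smaller set that includes thiolase, phytanoyl-CoA hydroxylase and Agps, had 73.8, 45.2 and 60.1 CPM against 44.4, 58.2 and 54.7 CPM (log2 fold change −0.19, SE 0.24, adjusted p = 0.796). The WT-labelled and KO-labelled ranges of both receptors overlapped, and the 95% interval of Pex5 was −0.48 to 0.51. Pex13 had a log2 fold change of 0.06 (SE 0.20). Pex14 had 58.5, 27.4 and 45.7 CPM against 23.4, 51.7 and 26.4 CPM (log2 fold change −0.37, SE 0.38, adjusted p = 0.752), with WT replicate 1 highest and KO replicate 4 lowest. An antisense gene covers 28.3% of the annotated exon bases of Pex14.

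The ubiquitin ligase and the membrane assembly factors also had overlapping groups. Pex2 had 56.1, 45.1 and 47.4 CPM in the WT-labelled and 45.3, 44.8 and 47.4 CPM in the KO-labelled libraries (log2 fold change −0.11, SE 0.18, adjusted p = 0.841), the smallest SE of the 37. Pex10, the least abundant peroxin, had a log2 fold change of −0.12 (SE 0.24). Of the factors that insert membrane proteins, Pex3, the docking site on the membrane, had 25.5, 17.1 and 16.2 CPM against 11.1, 19.0 and 18.1 CPM (log2 fold change −0.28, SE 0.29, adjusted p = 0.749). Pex19, the soluble chaperone that brings membrane proteins to it, had 116, 70.2 and 82.1 CPM against 62.2, 102 and 85.0 CPM (log2 fold change −0.10, SE 0.28, adjusted p = 0.909). Pex16, which helps to bring Pex3 to the membrane, had 136, 90.5 and 116 CPM against 115, 126 and 134 CPM (log2 fold change 0.13, SE 0.22, adjusted p = 0.852). A p that misses the threshold does not show that they were alike, and the intervals still allow, for example, −0.95 to 0.38 for Pex3.

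Among the enzymes of the main oxidation cycle, the thiolase paralogs Acaa1b and Acaa1a parted. Acaa1b (ENSMUSG00000010651, chromosome 9, 119148023 to 119157093) had 1204, 1496 and 1579 CPM in the WT-labelled and 2742, 2367 and 3290.4 CPM in the KO-labelled libraries. All KO-labelled libraries lay above all WT-labelled ones, a 1.96-fold difference (log2 fold change 0.97, SE 0.26, adjusted p = 0.4, unadjusted p = 0.00617). DESeq2 gave it an adjusted p of 0.0288, and the log2 fold change stayed between 0.80 and 1.08 over the 21 alternatives. Acaa1a (ENSMUSG00000036138, chromosome 9, 119339676 to 119350299), which makes the same kind of thiolase, had 393, 254 and 285 CPM against 283, 283 and 382 CPM with overlapping groups (log2 fold change 0.03, SE 0.26, adjusted p = 0.976). The ratio of Acaa1b to Acaa1a in FPKM was 6.90, 13.3 and 12.5 in the WT-labelled and 21.8, 18.8 and 19.4 in the KO-labelled libraries. This ratio does not depend on how libraries are scaled, and the groups did not overlap (two-sided exact permutation p = 0.1, the smallest possible, 0.233 adjusted over the 7 ratios). Reads can be exchanged between such paralogs: 30.5% of the 50-base words of Acaa1b transcripts also occur in Acaa1a transcripts, and 19.3% of the 100-base words. The exons of Acaa1b also share 11.4% of their bases with Dlec1 on the other strand.

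The sequences just before the start sites are shown for this pair and for the 3 peroxins with the smallest p, since these members carry the differences above. RefSeq (build GRCm38.p6, the assembly of mm10) gave entries for 29 of the 37 genes, and none for Crat. Each line gives the 130 bases before the RefSeq start, 5′ to 3′ on the gene's strand. Capitals mark matches on either strand to the GC box, spelled GGGCGG, to the CCAAT box, spelled by its name, and to the core bound by ETS factors, CCGGAA. The ETS core was added after the sequences had been read.
Pex11a, chr7:79743132-79743261, minus strand: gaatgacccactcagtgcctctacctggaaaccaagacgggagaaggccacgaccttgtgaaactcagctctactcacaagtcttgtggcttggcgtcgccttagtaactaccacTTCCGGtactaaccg
Pex26, chr6:121183537-121183666, plus strand: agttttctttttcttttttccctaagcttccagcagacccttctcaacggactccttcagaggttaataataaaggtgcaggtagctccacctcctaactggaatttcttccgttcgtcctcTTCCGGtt
Pex6, chr17:46711346-46711475, plus strand: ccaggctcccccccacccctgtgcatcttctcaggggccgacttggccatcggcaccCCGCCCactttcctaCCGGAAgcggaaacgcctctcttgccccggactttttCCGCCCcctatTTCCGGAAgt
Acaa1b, chr9:119157094-119157223, minus strand: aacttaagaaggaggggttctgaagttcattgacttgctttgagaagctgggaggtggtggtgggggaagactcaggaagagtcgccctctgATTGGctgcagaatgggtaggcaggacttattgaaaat
Acaa1a, chr9:119341164-119341293, plus strand: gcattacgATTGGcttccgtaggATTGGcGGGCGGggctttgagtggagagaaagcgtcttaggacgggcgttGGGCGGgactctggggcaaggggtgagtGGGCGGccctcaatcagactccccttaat
The thiolase pair differed in these letters: Acaa1a held 3 GC boxes, 2 CCAAT boxes and 9 CpG in this stretch, and Acaa1b 0, 1 and 1. The RefSeq start of Acaa1a lies 1618 bases inside the gene as the files give it, and the first 13 bases of the Pex6 gene as the files give it are the last of its window. The Pex11a window also holds a short exon of Wdr93, a gene on the other strand. Pex11a and Pex26 each held 1 ETS core, and Pex6 held 3, of which 2 overlap in a palindrome. Over the 250 bases before each of 32851 RefSeq starts, 32.7% held a GC box, 33.8% a CCAAT box and 12.0% an ETS core, against 22, 14 and 9 of the 34 windows of members. The members' windows also held more CpG, with a median of 12 against 6 over all windows, and the part of base composition in these counts was not tested. The DR1 repeat (the half-site AGGTCA repeated after 1 free base, at most 2 mismatches in all, both strands), the kind of element PPARA binds, was in 1 member window, that of Cat, and in 3.24% of all windows. These are matches of letters and not binding sites, and elements farther away were not searched.

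The other steps of the oxidation cycle had overlapping groups. Ehhadh, the bifunctional enzyme of straight-chain oxidation and a classic PPARA target, had 429, 120.0 and 319.6 CPM in the WT-labelled and 169, 230.3 and 589.6 CPM in the KO-labelled libraries. Its libraries spread more within a group than the group means differed. Means and SDs were 289 ± 156 CPM in the WT-labelled and 330 ± 227 CPM in the KO-labelled libraries. The log2 fold change of Ehhadh was 0.19 (SE 0.58, adjusted p = 0.922, 95% interval −1.15 to 1.52), and −0.54 without KO replicate 6. Hsd17b4, the bifunctional enzyme for branched chains and bile acid precursors, had a log2 fold change of 0.24 (SE 0.26). The branched-chain oxidases were at −0.45 (SE 0.35) for Acox2 and −0.12 (SE 0.23) for Acox3. Amacr, the racemase that readies branched chains and bile acid precursors for oxidation, was at −0.60 (SE 0.38), with WT replicate 1 highest. Scp2 had 4746, 3676 and 3608 CPM in the WT-labelled and 3639, 3878 and 4124 CPM in the KO-labelled libraries (log2 fold change −0.05, SE 0.26, adjusted p = 0.957).

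Of the helpers for unsaturated fatty acids, Ech1, a dienoyl-CoA isomerase, had 526, 415 and 409 CPM in the WT-labelled and 536, 572 and 692 CPM in the KO-labelled libraries. The lowest KO-labelled library stood just above WT replicate 1 (log2 fold change 0.41, SE 0.23, adjusted p = 0.645). Decr2, a dienoyl-CoA reductase, and Eci2, an enoyl-CoA isomerase, had log2 fold changes of 0.09 (SE 0.25) and −0.09 (SE 0.38). Eci2 had WT replicate 1 as its highest library, and without it the log2 fold change was 0.30. The ratio of Ech1 to Eci2 in FPKM overlapped between the groups (two-sided exact permutation p = 0.2, 0.233 adjusted over the 7 ratios).

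The carnitine acyltransferases, which pass shortened acyl groups on for export, were uneven. Crat (ENSMUSG00000026853, chromosome 2, 30400471 to 30415813), specific for acetyl and other short groups, had 24.9, 38.2 and 50.1 CPM in the WT-labelled and 82.6, 72.3 and 145 CPM in the KO-labelled libraries. All KO-labelled libraries lay above all WT-labelled ones, a 2.65-fold difference at means of 99.9 ± 39.3 against 37.7 ± 12.6 CPM (SD, n = 3 each, log2 fold change 1.40, SE 0.36, adjusted p = 0.4, unadjusted p = 0.00452). DESeq2 gave an adjusted p of 0.0352. KO replicate 6 was the highest library, and without it the log2 fold change was 1.03. The Crat protein is also found in mitochondria, and gene counts do not separate the transcripts. Crot, which takes medium-length chains, had a log2 fold change of 0.25 (SE 0.32), and the ratio of Crat to Crot overlapped between the groups (two-sided exact permutation p = 0.2).

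In the alpha-oxidation of phytanic acid, Phyh (ENSMUSG00000026664, chromosome 2, 4919019 to 4938730) had 2475, 1707 and 1819 CPM in the WT-labelled and 1039, 1361 and 1490.3 CPM in the KO-labelled libraries. All KO-labelled libraries lay below all WT-labelled ones (log2 fold change −0.63, SE 0.27, adjusted p = 0.591, unadjusted p = 0.0532), and the log2 fold change stayed between −0.74 and −0.31 over the 21 alternatives. Hacl1, the lyase that follows it, had a log2 fold change of −0.25 (SE 0.43), and 31.1% of its annotated exon bases belong to a second gene on the same strand. The ratio of Phyh to Hacl1 in FPKM was 259, 84.1 and 110 in the WT-labelled and 163, 105 and 76.0 in the KO-labelled libraries. These ranges overlapped (two-sided exact permutation p = 0.6, 0.6 adjusted over the 7 ratios). Of the ether lipid enzymes, Agps was at −0.14 (SE 0.22) and Gnpat at −0.02 (SE 0.23). Cat had 3215, 1913 and 2373 CPM in the WT-labelled and 1465, 2352 and 1957 CPM in the KO-labelled libraries, with overlap (log2 fold change −0.38, SE 0.31, adjusted p = 0.706).

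The transporters and membrane proteins had no common direction. Pxmp2, a channel-forming membrane protein, had 135, 43.6 and 121 CPM in the WT-labelled and 18.3, 82.8 and 34.8 CPM in the KO-labelled libraries. WT replicate 2 lay below KO replicate 5, and KO replicate 4 was lowest (log2 fold change −1.14, SE 0.60, adjusted p = 0.635, 95% interval −2.52 to 0.25). Its log2 fold change was −1.92 without KO replicate 5, −0.77 without KO replicate 4 and −0.22 with the mitochondrial share of counts as a covariate. Pxmp4, another membrane protein, had 139, 109.8 and 114 CPM against 143, 136 and 204 CPM (log2 fold change 0.41, SE 0.24, adjusted p = 0.652). Abcd2, a half-transporter for very long-chain and polyunsaturated acyl-CoA, had 4.30, 6.34 and 11.2 CPM against 9.81, 12.3 and 12.7 CPM (log2 fold change 0.67, SE 0.36, adjusted p = 0.638). Abcd4, which despite its family acts in the lysosomal handling of vitamin B12, had 17.9, 23.4 and 15.9 CPM against 26.3, 19.0 and 33.6 CPM (log2 fold change 0.47, SE 0.27, adjusted p = 0.652). Abcd3, the main half-transporter for branched-chain and dicarboxylic acids, and Slc27a2, an acyl-CoA synthetase for very long chains, had log2 fold changes of −0.05 (SE 0.36) and −0.0048 (SE 0.33). The groups of all 6 genes overlapped.

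**Figure D3:**
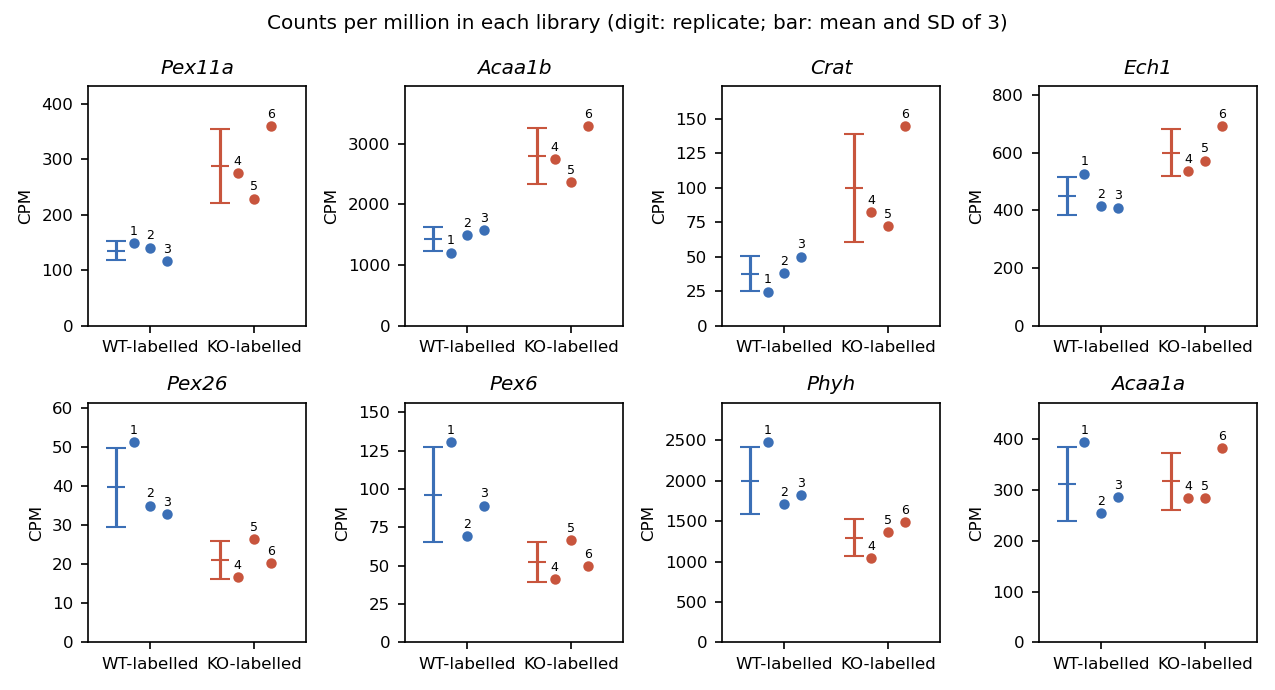
CPM in each library (y axis, from 0) for the 7 members whose labelled groups did not overlap and for Acaa1a. Points carry the replicate number, and the bar to their left is the mean with the SD of 3 libraries. Pex11a, Acaa1b, Crat and Ech1 stand higher and Pex26, Pex6 and Phyh lower in every KO-labelled library, while Acaa1a overlaps.

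Set side by side, both classes held members in each direction. The fitted log2 fold change was above 0 for 4 and below 0 for 9 of the 13 peroxins (median −0.12). For the 24 enzymes and transporters it was above 0 for 11 and below 0 for 13 (median −0.01). All tested genes had a median of −0.01, and 49.1% were fitted higher. Within each class the members spread from −0.91 to 1.09 for peroxins and from −1.14 to 1.40 for enzymes and transporters. Summed FPKM of enzymes and transporters was 21.5, 22.0 and 21.1 times that of peroxins in the WT-labelled and 18.8, 19.0 and 20.6 times in the KO-labelled libraries. That order rests on Pex11a: without Pex11a among the peroxins the ratios were 25.4, 27.8 and 24.9 and 28.4, 25.4 and 32.5, and the groups overlapped. With Acaa1b also taken out of the enzymes, the ratios were 23.0, 23.3 and 20.9 in the WT-labelled libraries. In the KO-labelled ones they were 20.1, 19.7 and 24.0, again with overlap, KO replicates 4 and 5 being lowest and KO replicate 6 highest.

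The members also differed from library to library within the labelled groups, often in the same direction. WT replicate 1 was the highest library for 22 of the 37 genes, 10 of them among the 13 peroxins, and KO replicate 4 was the lowest for 16. KO replicate 6 was the highest for 10 of the 24 enzymes and transporters but for 1 peroxin. The median deviation of the peroxins from their mean over 6 libraries was 0.42 in WT replicate 1, −0.26 in WT replicate 2 and 0.07 in WT replicate 3, and −0.31, 0.10 and −0.01 in KO replicates 4, 5 and 6 (log2 scale). The enzymes and transporters had 0.33, −0.32 and −0.12 against −0.19, 0.13 and 0.30. Within a library, the median deviation of enzymes minus that of peroxins was −0.09, −0.05 and −0.19 in the WT-labelled and 0.13, 0.02 and 0.30 in the KO-labelled libraries. On this measure, which weights each gene alike, the groups did not overlap, although the summed FPKM above gave the other order. It is given as a description of the members, with no test. Between group means, KO-labelled minus WT-labelled, the median deviation differed by −0.15 for peroxins and 0.11 for enzymes and transporters. The pooled SD between libraries of a group was larger, at 0.29 for each class. The median deviation of all tested genes stayed between −0.03 and 0.04.

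**Figure D4:**
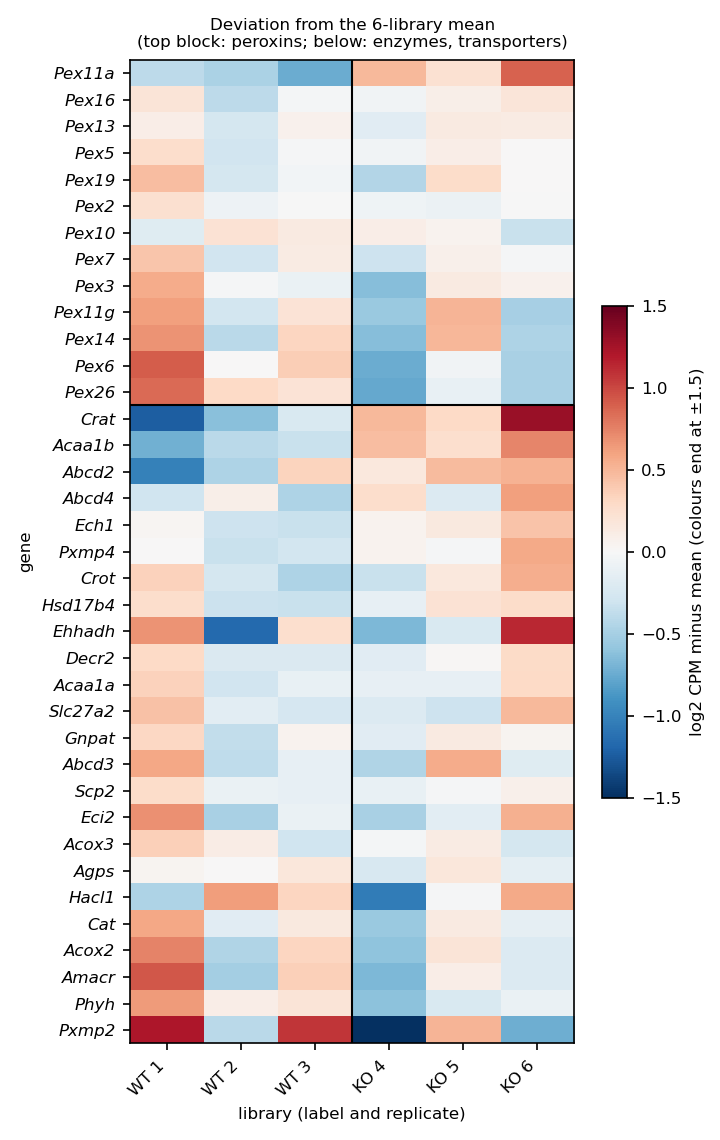
Deviation of each gene (rows, peroxins above the line) from its mean over the 6 libraries (columns, WT-labelled left of the line), as log2 CPM. WT replicate 1 is red for most genes of both blocks and KO replicate 4 blue, while Pex11a, Crat and Acaa1b are blue in all WT-labelled and red in all KO-labelled libraries.

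**Figure D5:**
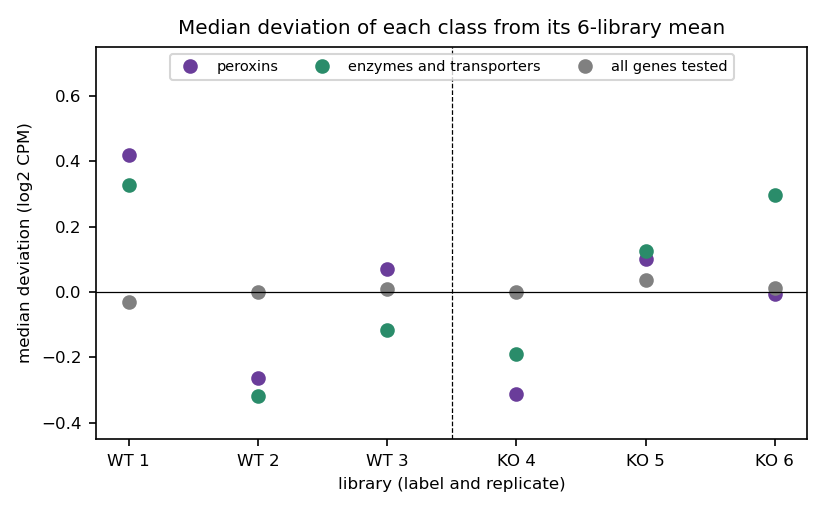
Median deviation (y axis, log2 CPM) of peroxins, of enzymes and transporters and of all tested genes in each library (x axis). Peroxins reach 0.42 in WT replicate 1 and −0.31 in KO replicate 4, and enzymes part from peroxins most in KO replicate 6 (0.30 against −0.01).

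The count of members fitted higher, 15 of 37, changed with the libraries used. It was 22 without WT replicate 1, 9 without WT replicate 2, 12 without WT replicate 3, and 21, 15 and 14 without KO replicates 4, 5 and 6. With WT replicate 1 and KO replicate 4 both left out it was 28, and with the mitochondrial share of counts as a covariate it was 26. Summed CPM of 12 hepatocyte markers was 127148 in WT replicate 1, and from 84877 to 119354 in the other libraries (11 of 12 genes fitted lower in KO-labelled libraries). Summed markers of several other liver cells did not overlap between the labelled groups. The 12 Kupffer cell and macrophage markers summed to between 159 and 209 CPM in WT-labelled and between 275 and 326 CPM in KO-labelled libraries. For 8 endothelial markers the ranges were 175 to 237 and 275 to 425 CPM, and for 10 stellate cell markers 192 to 216 and 225 to 525 CPM. Taken singly, 50% of the macrophage, 12.5% of the endothelial and 50% of the stellate cell markers had all KO-labelled libraries above all WT-labelled ones. The share of all genes was 8.12%. Periportal markers (8 genes, all fitted lower, median −0.67) ranged from 3974 to 9119 and from 3782 to 5749 CPM, and pericentral markers (8 genes, 3 fitted higher and 5 lower) from 6557 to 15243 and from 5134 to 8067 CPM. The 8 adipocyte markers summed to 2014 to 2710 and 2794 to 3424 CPM, nearly all of it Car3, which every library held at 1979 CPM or more. Without KO replicate 5, the library with the fat cell genes, the log2 fold changes were 1.22 for Pex11a, 1.08 for Acaa1b, 1.59 for Crat, 0.44 for Ech1, −1.10 for Pex26, −1.09 for Pex6 and −0.67 for Phyh. Cholangiocyte markers summed to 39.9 to 78.4 and 56.8 to 74.9 CPM, and lymphocyte markers to 5.19 to 7.34 and 2.73 to 5.27 CPM. No marker in these lists was at 0 in all libraries, and the part of cell composition in the members' values was not tested.

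The 3 markers with the smallest p in each list, none past the adjusted threshold, had these log2 fold changes. Among macrophage markers they were 0.88 for Csf1r, 0.83 for C1qa and 0.77 for C1qb, and among endothelial markers 1.04 for Eng, 0.94 for Pecam1 and 1.02 for Stab1. All 8 endothelial markers were fitted higher, from 0.02 for Kdr to 1.04 for Eng. The collagen genes of stellate cells were at 2.28 for Col3a1, 2.38 for Col1a1 and 1.94 for Col1a2. Of the 10 stellate markers 7 were fitted higher and 3 lower, and Lrat, Colec11, Dcn and Reln were at −0.03, −0.07, −0.01 and 0.15. Hepatocyte markers were at −1.70 for Cps1, −0.75 for Ass1 and −0.93 for Ahsg, periportal markers at −1.20 for Cdh1, −0.73 for Arg1 and −1.11 for Cyp2f2, and pericentral markers at 1.37 for Rhbg, −1.93 for Cyp1a2 and −0.77 for Cyp2e1. The adipocyte list had 4.15 for Cidea, 1.46 for Fabp4 and 0.31 for Car3 (Adipoq, Lep, Plin1 and Retn were too low to be tested), the cholangiocyte list 0.69 for Krt19, −0.66 for Sox9 and 0.21 for Spp1, and the lymphocyte list −2.21 for Cd4, −1.12 for Cd79a and 0.55 for Cd3g.

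A second list held 47 other genes assigned to peroxisomes, of which 44 were tested. Of these 17 were fitted higher and 27 lower, with a median of −0.10, and 0 passed the adjusted threshold in edgeR, with 4 higher and 4 lower at an unadjusted p under 0.05 (9.09% each, against 5.37% and 3.21% of all genes). Nudt7, which hydrolyses peroxisomal coenzyme A, had 643, 402 and 489 CPM in the WT-labelled and 168, 271 and 148 CPM in the KO-labelled libraries (log2 fold change −1.39, SE 0.32, adjusted p = 0.37). Mpv17l, a membrane protein of the Pxmp2 family, had 35.8, 26.9 and 37.3 CPM against 15.3, 20.2 and 13.3 CPM (log2 fold change −1.03, SE 0.24, adjusted p = 0.382). Both genes were lower in all KO-labelled libraries. Hao2, a hydroxy acid oxidase, had 0.312, 1.41 and 1.41 CPM against 7.18, 1.99 and 8.87 CPM, higher in all KO-labelled libraries (log2 fold change 2.50, SE 0.70, adjusted p = 0.4).

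A further list held PPARA and targets of it outside the peroxisome. Ppara itself had 37.8, 34.9 and 30.0 CPM in the WT-labelled and 34.3, 32.3 and 35.7 CPM in the KO-labelled libraries (log2 fold change −0.0048, SE 0.18, adjusted p = 0.993). Of 30 tested genes in that list, which holds Ppara, 19 were fitted higher and 11 lower, with a median of 0.14, and 8 (26.7%) were higher and 0 lower at an unadjusted p under 0.05, against 5.37% and 3.21% of all genes. None passed the adjusted threshold. The 3 with the smallest p were Ucp2, a mitochondrial carrier (log2 fold change 1.42, SE 0.21, adjusted p = 0.236), Cd36, a fatty acid transporter (log2 fold change 1.67, SE 0.29, adjusted p = 0.297), and Fgf21, a fasting hormone (log2 fold change 1.75, SE 0.46, adjusted p = 0.4). Macrophages also express Ucp2 and Cd36, and the part of cell composition in their values was not tested. The PPARA list and the list of other peroxisomal genes were written with earlier results of these data known. Their counts describe the lists and are no test.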

How the data were processed

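RNA from flash-frozen mouse liver was sequenced in 6 TruSeq RNA libraries, per the labels' protocols. The authors deposited whole-number read counts per gene and FPKM values for 54532 genes. The submitters' processing notes name the build mm10 and the tools DESeq2 1.16.1, HISAT2 2.0.5 and featureCounts 1.5.0-p3, without their settings (the strand setting is not given). Column names match 1 library each. Nothing in the labels ties each library to its own mouse, so p-values measure the spread between these libraries, which may be partly technical. No pair of libraries agreed within sampling noise: over genes, the smallest chi-square divided by its degrees of freedom was 42.3, between KO replicates 4 and 6. On this measure KO replicate 5 was nearer to WT replicates 1, 2 and 3 (107, 87.9 and 53.7) than to KO replicates 4 and 6 (209 and 143).

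The counts were tested with edgeR 4.0.16 (quasi-likelihood, TMM scaling, filterByExpr, R 4.3.3) over all 13693 genes kept, with Benjamini-Hochberg adjustment and a threshold of 0.05. The fit was KO-labelled against WT-labelled, 3 against 3. SEs are the log2 fold change divided by the square root of F. CPM use TMM-scaled totals. FPKM served for levels between genes, for ratios and, as log2 with a pseudocount of 1 or 0.1, for alternatives fitted with limma. All 37 members passed the filter on low counts. The fit was also run on simulated counts with 200 genes changed. Those counts held no library differences beyond scale and the scatter of single genes. That run therefore cannot show how the fit handles the library differences seen here. Alternatives used DESeq2 1.42.0, limma 3.58.1 (voom) and sva 3.50.0.

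All 37 genes are named. Values in every library are given for the 8 smallest p and the 4 highest mean FPKM of each class, and for others where a comparison turns on them. Of each other list the 3 smallest p are named. The members, the gene lists and the motifs were chosen with earlier results of these data known.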

Additional observations from a re-analysis of the deposited data

How the results depend on the processing

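Over 21 alternatives for each of the 37 genes, 83 of 777 log2 fold changes had another sign than the reported one, 27 of them by at least 1 SE, and 15 members kept 1 sign throughout. Pex11a, Acaa1b, Crat, Ech1, Pex26, Pex6 and Phyh were among those 15. The count of all genes past the threshold, 2 in edgeR, was 165 with DESeq2, 1 with limma-voom, 4063 with sample quality weights, 1 with library size alone, 61 with no filter on low counts, 1 with the mitochondrial share as a covariate, 7 with 1 surrogate variable, 0 without both WT replicate 1 and KO replicate 4, and 0 to 1 with each library left out in turn. The median log2 fold change of peroxins was 0.17 with the mitochondrial covariate, 0.11 without WT replicate 1 and KO replicate 4, 0.079 with 1 surrogate variable, and between −0.27 and −0.02 with each library left out. The median of enzymes and transporters was 0.37 without WT replicate 1 and KO replicate 4, 0.16 with the mitochondrial covariate, 0.20 with 1 surrogate variable, 0.25 with sample quality weights, and between −0.11 and 0.26 with each library left out. With the mitochondrial covariate the class medians were thus about alike, at 0.17 for peroxins and 0.16 for enzymes and transporters. Without WT replicate 1 and KO replicate 4 the log2 fold changes that reversed were 0.48 for Abcd3, 0.026 for Acox2, 0.0089 for Cat, 0.51 for Eci2, 0.23 for Gnpat, 0.11 for Pex11g, 0.10 for Pex14, 0.30 for Pex19, 0.16 for Pex3, 0.10 for Pex7 and 0.35 for Slc27a2. With the mitochondrial covariate they were 0.49 for Abcd3, 0.051 for Acox2, 0.22 for Pex11g, 0.22 for Pex14, 0.27 for Pex19, 0.057 for Pex3 and 0.068 for Pex7. With 1 surrogate variable they were 0.34 for Abcd3, 0.014 for Acox2, 0.079 for Pex11g, 0.10 for Pex14, 0.18 for Pex19 and 0.053 for Pex7. With each library left out in turn Eci2 was between −0.44 (without KO replicate 6) and 0.30 (without WT replicate 1), and Ehhadh between −0.54 (without KO replicate 6) and 0.58 (without WT replicate 1), and with sample quality weights Slc27a2 was at 0.45. The cause was not tested for any of these. No paired analysis was possible because the labels give each library its own number and the groups share none. With 3 libraries a group the median 95% interval reached 0.62 to either side on the log2 scale, and 21 of 37 intervals lay within ±1.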
